A study of Rattus norvegicus with 24 samples.

Results

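A group of 9 enzymes of amino acid breakdown, known above all from liver, were followed in 3 tissues of fasted and fed rats. The genes are Sds, Tat, Tdo2, Hal, Prodh, Oat, Gls2, Aass and Aadat, and a probe set was taken where the platform annotation gave it exactly 1 symbol and that symbol was 1 of the 9. This found 10 probe sets for the 9 genes, of 31042 probe sets and 14217 named genes in all. Prodh alone had a second probe set, which was dim in every group, with group means from 0.537 to 4.92, and was left aside. Male Wistar rats, an outbred strain, were 7 weeks old at the start and for 7 days ate only between hours 10 and 16. At 8 weeks of age, on day 8, food was withheld from the fasted animals for a fast of 24 h and given to the fed animals. Fasted liver, fed liver, fasted interscapular brown adipose tissue (BAT, the heat-producing fat), fed BAT, fasted perinephrial white adipose tissue (WAT, a storage fat) and fed WAT each had 4 arrays. The fasted animals carry the numbers 6, 8, 9 and 10 and the fed animals 1, 2, 4 and 5. The labels name no modified gene, and all groups shared the restricted meal hours. What the fed rats stand for is therefore a rat on 1 restricted meal a day.

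Amino acids reach the liver from the gut after a meal and from body protein during a fast. Each of the 9 enzymes acts at or near the entry to the breakdown of 1 or a few amino acids, and their products feed glucose synthesis, ketone formation or the urea cycle. Several of them, Tat and Sds among them, are textbook cases of enzymes whose amounts follow glucagon, glucocorticoids and dietary protein. Signals are array intensities scaled to a common level, without a physical unit. They can be compared between samples for 1 gene but not between genes. Changes are differences of log2(signal + 1.9), fasted minus fed, with their standard error (SE). A gene was called where its adjusted p, from limma with Benjamini-Hochberg adjustment over all genes tested, was under 0.05, and "rose" and "fell" are used only of called genes.

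The tissue labels were checked against marker genes. The summed signal of 9 hepatocyte markers ran from 73400 to 97000 in fasted liver and from 67800 to 90500 in fed liver, against 1340 to 3560 on the 16 fat arrays. In liver none of these 9 markers was called with fasting by limma, and 0 of them had an unadjusted p under 0.05. The 6 brown adipocyte markers summed to 19000 to 24400 in BAT, against 1930 to 3170 in WAT. Skeletal muscle markers stood out in the fat: their mean log2 signal was 12.15 ± 0.2 in fasted BAT and 7.12 ± 3.12 in fed BAT (SD, n = 4), where fed animal 5 was at 11.5. In WAT, fasted animals 8 and 10 were at 11.08 and 12.03, while the other 6 WAT arrays lay between 3.98 and 4.57. The 5 adrenal cortex markers summed to 1240 to 2170 in WAT, against 85.4 to 140 in BAT. In each fat only 2 of the 5 were bright enough to be tested, so the sum in WAT rests mainly on 2 genes. The sum of 6 macrophage markers was 3650 to 5270 in fasted liver and 2460 to 3520 in fed liver, and 2 of the 6, Cd68 and Cd163, rose there. In these bulk samples, fewer cells of a type and less RNA per cell cannot be told apart.

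Promoters are shown for 4 members: Tat and Tdo2, whose profiles over the 24 arrays were the most alike of any pair of members, and Oat and Aadat, which moved in opposite directions in BAT. The sequences are RefSeq's on build GRCr8, from 250 bases before to 50 bases after the gene's start, given on the gene's strand. Capitals mark matches, on either strand, to the motifs searched, which were the CCAAT box, the TATA box in its form TATAA, the GC box as GGGCGG, the core of the cAMP response element as TGACG, the core of the glucocorticoid response element as TGTTCT and GTAAACA for forkhead factors, each read on both strands. Tat lies at chr19:54856354-54856653 on the plus strand, Tdo2 at chr2:169585537-169585836, Oat at chr1:196797705-196798004 and Aadat at chr16:34555131-34555430, these 3 on the minus strand.
Tat: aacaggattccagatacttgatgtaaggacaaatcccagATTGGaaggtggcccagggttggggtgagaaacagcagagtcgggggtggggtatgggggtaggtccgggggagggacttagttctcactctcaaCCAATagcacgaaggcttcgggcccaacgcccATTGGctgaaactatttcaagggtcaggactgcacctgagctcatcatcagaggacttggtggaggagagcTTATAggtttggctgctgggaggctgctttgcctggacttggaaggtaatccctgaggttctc
Tdo2: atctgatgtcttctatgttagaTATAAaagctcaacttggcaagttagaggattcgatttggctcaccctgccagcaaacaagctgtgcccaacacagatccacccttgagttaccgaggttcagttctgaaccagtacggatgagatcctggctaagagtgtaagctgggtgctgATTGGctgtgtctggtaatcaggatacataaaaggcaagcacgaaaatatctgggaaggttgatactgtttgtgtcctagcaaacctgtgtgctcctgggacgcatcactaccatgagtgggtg
Oat: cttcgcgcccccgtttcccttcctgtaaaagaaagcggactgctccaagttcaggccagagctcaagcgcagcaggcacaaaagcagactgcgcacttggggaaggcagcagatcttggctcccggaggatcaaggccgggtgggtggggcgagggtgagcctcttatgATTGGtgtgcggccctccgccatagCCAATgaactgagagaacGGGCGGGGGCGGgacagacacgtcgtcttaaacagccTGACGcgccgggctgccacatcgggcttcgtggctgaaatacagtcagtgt
Aadat: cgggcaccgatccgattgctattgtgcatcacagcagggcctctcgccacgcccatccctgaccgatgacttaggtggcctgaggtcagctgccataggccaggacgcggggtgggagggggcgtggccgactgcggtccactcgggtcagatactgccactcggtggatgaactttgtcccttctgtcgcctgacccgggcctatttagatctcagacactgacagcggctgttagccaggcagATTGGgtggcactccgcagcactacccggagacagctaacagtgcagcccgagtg
The Tat and Tdo2 windows each held the letters of the CCAAT and TATA boxes. The TATAA letters lay at different places, from base -13 on the other strand in Tat and from base -228 on the gene's strand in Tdo2, counted from the gene's start. The Oat window held those of the CCAAT box, of the GC box (2 matches end to end) and of the cAMP core. The Aadat window held those of the CCAAT box alone. Of 33469 rat promoter windows of the same length, 37.5% held the CCAAT box, 26.2% the TATA box, 33.1% the GC box, 21.2% the cAMP core, 20.7% the glucocorticoid core and 3.78% the forkhead motif. A match is a run of letters and not a shown binding site. Of the 9 genes 6 were matched in the promoter table, these 4 with Gls2 and Aass; Sds, Hal and Prodh were not.

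In liver, fasting raised Sds and lowered Hal, and the other 7 enzymes were not called. Sds, the serine dehydratase that turns serine into pyruvate and ammonia, had signals of 1488, 1555, 2463 and 905 in fasted livers of animals 6, 8, 9 and 10, against 72.9, 64.5, 89.0 and 82.8 in fed livers of animals 1, 2, 4 and 5. Every fasted liver lay far above every fed liver; all 4 fasted lay above all 4 fed for 11.9% of the genes tested. The change was 4.26 ± 0.25 (SE), a 19.2-fold rise (limma, adjusted p = 1.59e-06). Of 10251 genes tested in liver, 18% were called, 9.41% higher and 8.6% lower in fasted animals. Against this background 2 of 9 members is close to what all genes showed, so the count says little about the group. The median change of the 9 was 0.22, against 0.03 for all genes tested.

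Hal, the histidine ammonia-lyase of the first step of histidine breakdown, ran the other way. Its signals were 1079, 778, 1044 and 1058 in fasted livers of animals 6, 8, 9 and 10, against 1284, 1384, 1366 and 1383 in fed livers of animals 1, 2, 4 and 5. All fasted livers lay below all fed livers, as was so for 11.1% of the genes tested. Hal fell by 0.46 ± 0.12 (limma, adjusted p = 0.0217). The call was lost without fed animal 2 or 5 (adjusted p = 0.0556 and 0.0523), with no mean-variance trend (0.0505) and with all 24 arrays in 1 model (0.486).

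Tat, the tyrosine aminotransferase, had signals of 2387, 2060, 1766 and 1458 in fasted livers and of 991, 1044, 2033 and 1195 in fed livers, in the same order of animals. Fed animal 4, at 2033, reached into the fasted range, and the other 3 fed livers lay below it. The difference was 0.58 ± 0.22 and was not called (limma, adjusted p = 0.0936). Without fed animal 4 it was 0.81 ± 0.16 and was called (adjusted p = 0.00903). On that array the 3′ to 5′ log2 ratio of the actin control, a measure of RNA quality, was 1.19, against 1.66 to 2.00 on the other fed liver arrays and 1.60 to 1.98 on the fasted ones, and its part in the Tat value was not tested.

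The other 6 enzymes differed little between fasted and fed livers, with no call. Tdo2, the tryptophan dioxygenase that opens the kynurenine pathway, had 6056, 5341, 8554 and 5317 in fasted livers and 5039, 6166, 4419 and 5773 in fed livers. Oat, the ornithine aminotransferase, had 2313, 1617, 2167 and 1257 in fasted livers and 1706, 1648, 1241 and 1792 in fed livers. In both genes the groups overlapped broadly, with differences of 0.22 ± 0.16 for Tdo2 (adjusted p = 0.376) and 0.18 ± 0.19 for Oat (adjusted p = 0.573). Prodh, the mitochondrial proline dehydrogenase, averaged 1030 ± 168 in fasted and 967 ± 188 in fed livers (SD, n = 4), a difference of 0.10 ± 0.17 (limma, adjusted p = 0.73). Gls2, the liver-type glutaminase, had 2300, 2126, 2054 and 1851 in fasted livers and 1664, 1466, 2136 and 1597 in fed livers. Here again fed animal 4 alone stood among the fasted values. The Gls2 difference was 0.29 ± 0.13 (adjusted p = 0.144), and without that animal it was 0.40 ± 0.11 and was called (adjusted p = 0.0349). Aass, the bifunctional enzyme that opens lysine breakdown, averaged 2845 ± 636 in fasted and 2320 ± 415 in fed livers (SD, n = 4), a difference of 0.28 ± 0.17 (limma, adjusted p = 0.286). Aadat, which transfers the amino group of aminoadipate and of kynurenine, averaged 1877 ± 228 in fasted and 1686 ± 187 in fed livers (SD, n = 4), a difference of 0.15 ± 0.12 (limma, adjusted p = 0.418).

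**Figure D1:**
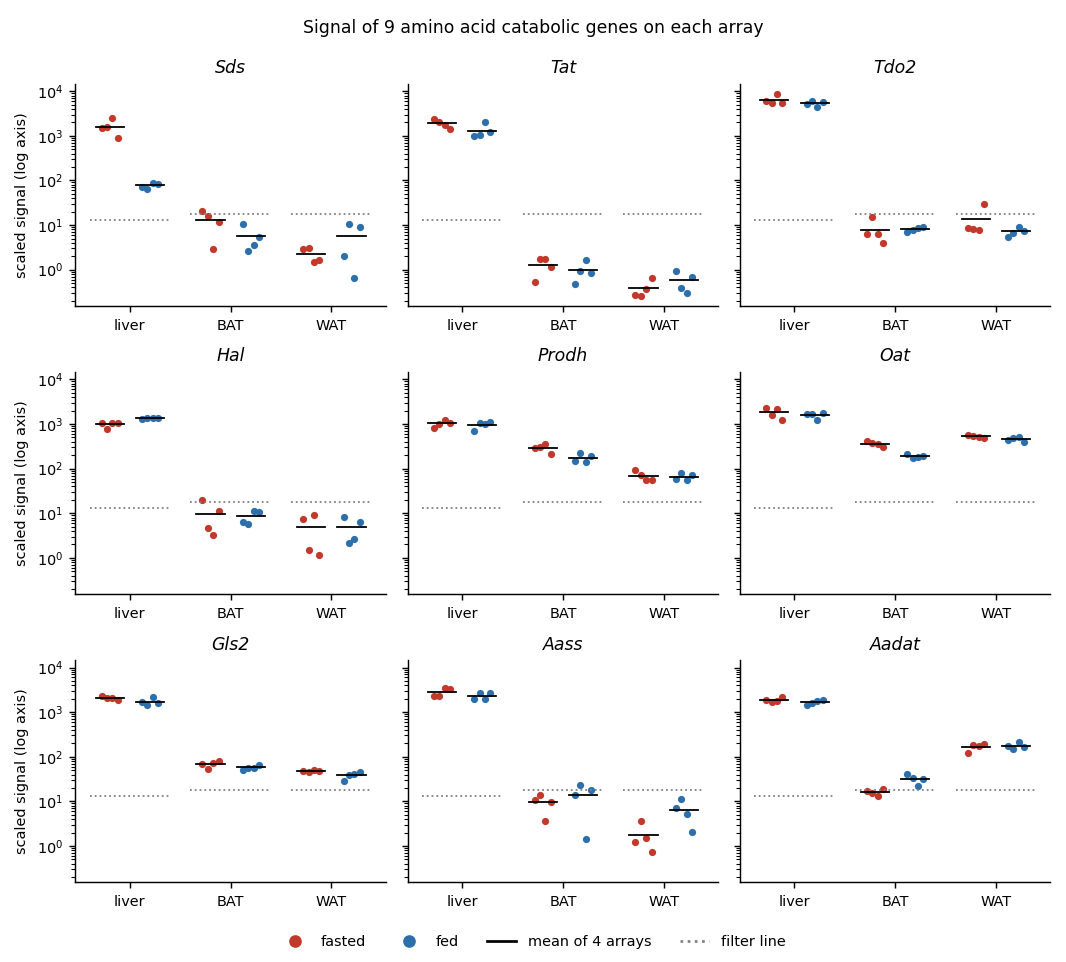
Scaled signal of each of the 9 genes on every array, on a log axis, by tissue, with fasted arrays left of fed arrays; bars are means of 4 arrays and dotted lines mark the signal under which a gene was not tested in that tissue. Fasted livers stand above fed livers in Sds, at 905 to 2463 against 64.5 to 89.0, and 5 of the genes lie near or under the dotted line in both fats.

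The liver arrays were scanned on 2 days, each with 2 fasted and 2 fed arrays. With scan day as a block, 5 of the 9 members were called: Sds and Hal as before, and also Tat (0.58 ± 0.18, adjusted p = 0.0296), Gls2 (0.29 ± 0.09, adjusted p = 0.0375) and Aass (0.28 ± 0.07, adjusted p = 0.00941). In the same fit the number of genes called in liver was 2928, against 1847 without the block. Within the first and the second day, the change of Sds was 4.32 and 4.21, that of Hal -0.40 and -0.53, that of Tat 0.52 and 0.64, that of Gls2 0.35 and 0.23, and that of Aass 0.34 and 0.23. These 5 genes kept their direction on both days, whereas Oat was at -0.06 on the first and 0.41 on the second. Sds was called on each day, Hal, Tat and Aass on the first day alone, and Gls2 on neither.

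In BAT, Oat and Prodh rose and Aadat fell. Of 10342 genes tested there, 26.9% were called, 13.8% higher and 13.1% lower. Of the members 4 passed the filter on dim genes, which lay at a signal of 17.9 in BAT, and 3 of the 4 were called. Sds, Tat, Tdo2, Hal and Aass were under the filter and were not tested. Oat had signals of 411, 382, 352 and 298 in fasted BAT of animals 6, 8, 9 and 10, against 216, 172, 179 and 192 in fed BAT of animals 1, 2, 4 and 5. Each fasted value exceeded each fed value, as was so for 14.8% of the genes tested. Oat rose by 0.92 ± 0.13, or 1.89-fold (limma, adjusted p = 0.00077).

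Prodh had 283, 302, 352 and 212 in fasted BAT and 149, 220, 141 and 193 in fed BAT. The groups overlapped only through fasted animal 10 and fed animal 2. The rise was 0.70 ± 0.19 (limma, adjusted p = 0.0192). It was 0.40 on the first scan day and 1.00 on the second, and the call was lost on the first (adjusted p = 0.334) and on leaving out fed animal 1 (0.0566) or 4 (0.0531) or fasted animal 9 (0.0516). With the dim second probe set averaged in, the change was 0.09 ± 0.30 (adjusted p = 0.861).

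Aadat had 17.0, 15.5, 13.1 and 18.6 in fasted BAT, against 40.5, 33.2, 22.1 and 31.1 in fed BAT. All fasted values were below all fed values, as for 14.2% of the genes tested, and 3 of the 4 fasted ones lay under the filter line. Aadat fell by 0.89 ± 0.27 (limma, adjusted p = 0.0329), but the call was lost on either scan day alone, with changes of -0.96 (adjusted p = 0.151) and -0.81 (adjusted p = 0.244), and in 6 of the 8 fits that left out 1 array: without fed animals 1, 2 or 5 (adjusted p = 0.0922, 0.0776 and 0.0659) and without fasted animals 6, 8 or 9 (0.0552, 0.0641 and 0.074). Gls2 had 69.8, 53.3, 74.2 and 81.8 in fasted BAT and 51.4, 56.7, 57.5 and 65.8 in fed BAT, with a difference of 0.25 ± 0.17 (limma, adjusted p = 0.323).

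Muscle marker level moved with fasting in BAT, where 8 of 9 muscle markers rose, by a median of 5.87 over the 9. When that level entered the fit as a covariate, an alternative added once the data had been seen, the changes were 0.81 ± 0.23 for Oat (adjusted p = 0.0922), 0.54 ± 0.32 for Prodh (adjusted p = 0.43) and -1.06 ± 0.47 for Aadat (adjusted p = 0.283), and no member was called. The same fit called 3.32% of all genes tested in BAT, or 343 of 10342, against 26.9% without the covariate. The 3 changes kept their direction, with wider SEs. Fed animal 5, the fed BAT array with muscle markers near the fasted level, had 192 for Oat, 193 for Prodh and 31.1 for Aadat, each within the range of the other 3 fed arrays; this rests on 1 array, and the part of muscle in the fasting changes was not tested beyond the fit above. Other markers moved with fasting in BAT too. The 6 macrophage markers summed to 1080 to 1360 in fasted and 627 to 844 in fed BAT, without overlap, and 3 of the 5 tested rose, with a median of 0.78 over the 5. Of 5 brown adipocyte markers tested 3 fell, with a median of -0.68, while the summed signal of all 6 overlapped, at 19000 to 21000 in fasted and 19300 to 24400 in fed BAT. The summed hepatocyte markers were lower in fasted than in fed BAT, at 1630 to 2210 against 2340 to 3120, and the part of these 3 marker groups in the values of Oat, Prodh and Aadat was not tested. The actin 3′ to 5′ log2 ratio was 0.97 ± 0.09 in fasted BAT and 1.46 ± 0.47 in fed BAT (SD, n = 4), and its part was not tested either.

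**Figure D2:**
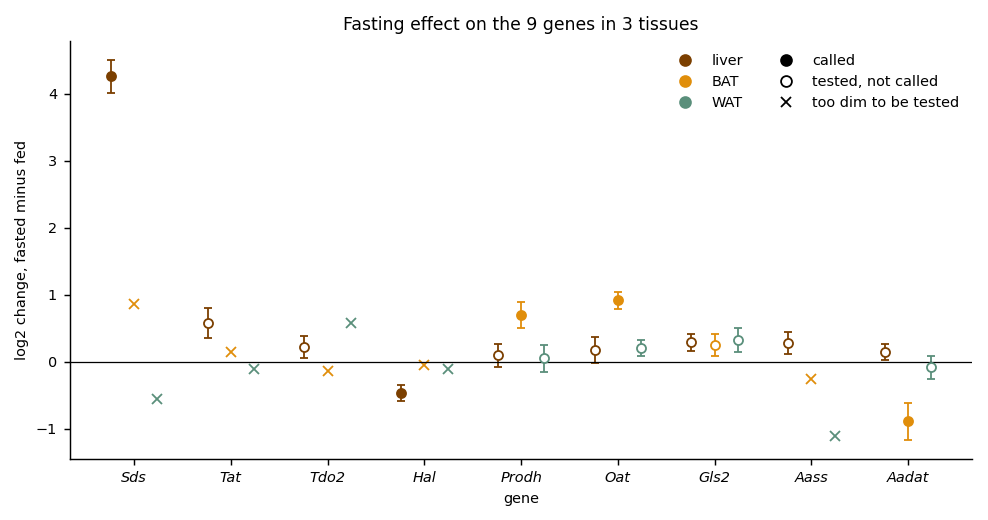
Log2 change, fasted minus fed, of each gene in liver, BAT and WAT, with SE bars for tested genes; filled circles were called, open circles were tested and not called, and crosses, without SE, were too dim to be tested. Sds in liver stands at 4.26, every other tested value lies between -0.89 and 0.92.

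In WAT no member was called. Of 10275 genes tested, 18.2% were called by limma. The same 4 members as in BAT passed the filter, at a signal of 18.1. Oat had 563, 544, 500 and 494 in fasted WAT, against 438, 478, 522 and 386 in fed WAT, and the groups overlapped through fed animal 4 (0.21 ± 0.12, limma, adjusted p = 0.245). Gls2 had 48.69, 46.26, 49.64 and 48.41 in fasted WAT and 29.06, 39.96, 40.16 and 45.45 in fed WAT. All fasted values lay above all fed values for Gls2, as for 11.1% of the genes tested, but the difference of 0.32 ± 0.18 was not called (adjusted p = 0.243, unadjusted p = 0.1). Prodh averaged 68.9 ± 16.9 in fasted and 65.9 ± 10.8 in fed WAT (SD, n = 4; 0.05 ± 0.20, limma, adjusted p = 0.898). Aadat averaged 169 ± 32.1 in fasted and 177 ± 26.8 in fed WAT (SD, n = 4; -0.08 ± 0.17, limma, adjusted p = 0.801). None of the 4 had an unadjusted p under 0.05 in WAT, and none was called in any alternative fit. On the 2 WAT scan days that held both groups, the change of Prodh was -0.39 and 0.50, that of Aadat 0.28 and -0.37, that of Oat 0.20 and 0.21 and that of Gls2 0.18 and 0.45. The first of these days held 1 fasted array, that of animal 10 with its high muscle markers, and 2 fed arrays, so its values rest on that array.

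The difference of the fasting effect between tissues was tested directly, over all 24 arrays. Between liver and BAT, 10.3% of 11433 genes differed, and 3 of the 9 members did. The fasting effect on Sds was 3.40 ± 0.68 larger in liver than in BAT (limma, adjusted p = 0.00173). The size of this difference rests on BAT signals under the filter line on 7 of 8 arrays, and with such signals set to the line, an alternative added once the data had been seen, it was 4.22. That on Aadat was 1.04 ± 0.24 larger (adjusted p = 0.00551), the gene being little changed in liver and lower in fasted BAT. Its fasted BAT signals lay under the filter line on 3 of 4 arrays, so this size is uncertain too. Over 22 alternative fits it ran from 0.72 to 1.24 and stayed called. The effect on Oat was 0.74 lower in liver than in BAT, at -0.74 ± 0.22 (adjusted p = 0.0338). This Oat call was lost under quantile normalization (adjusted p = 0.0503), median centring (0.0814) and no mean-variance trend (0.0528), and without animals 1, 2, 5 or 8 (0.0621, 0.121, 0.0826 and 0.129). Muscle marker level was a covariate in no fit of these tissue differences, and its part in them was not tested. Prodh, which rose in BAT alone, was not shown to differ (-0.60 ± 0.27, adjusted p = 0.171). Between liver and WAT, 7.44% of all genes differed, and Sds was the only member among them (limma, adjusted p = 5.85e-05). Its fitted difference of 4.82 is above the liver change of 4.26 only through WAT signals that were under the filter line on all 8 arrays and give no measured change; set to the line, they left a difference of 4.26. Between BAT and WAT, 1.38% of all genes differed and no member did. The members nearest to a call there were Aadat (-0.81 ± 0.24, adjusted p = 0.0997) and Oat (0.71 ± 0.22, adjusted p = 0.133), and Aadat was called without animal 4 (-1.05, adjusted p = 0.0316). At an unadjusted p under 0.05, Sds, Prodh, Oat and Aadat would pass between BAT and WAT. For Sds, dim in both fats, that difference became 0.04 with signals set to the line.

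All 9 genes had higher signals in liver than in either fat, in fasted and in fed animals. The share of all genes that were higher in liver was 25% against fasted BAT, 23% against fasted WAT, 23.6% against fed BAT and 22.3% against fed WAT. The members were chosen as liver enzymes, and 5 of them passed the filter through liver alone. Signals under the filter line on all 4 arrays of a fat are treated as a bound, and the liver level is then given as at least so many times the filter line, on the log2(signal + 1.9) scale; no detection calls were used. Fasted liver had at least 95.2-fold the Tat level of fasted BAT and at least 94.5-fold that of fasted WAT, and fed liver at least 63.6-fold and 63.1-fold that of fed BAT and fed WAT. Tat was among the dimmest probe sets in fat, with signals between 0.259 and 1.73 on all 16 fat arrays. For Tdo2 the bounds were 312-fold in fasted liver over fasted BAT, 268-fold in fed liver over fed BAT and 266-fold in fed liver over fed WAT. For Hal, fed liver exceeded fed BAT at least 68.3-fold and fed WAT at least 67.9-fold, and fasted liver exceeded fasted WAT at least 49.2-fold. Single fat arrays rose above the line for otherwise dim genes: Tdo2 in fasted WAT of animal 10 (29.7), Hal in fasted BAT of animal 6 (19.9), Sds in the same sample (20.4) and Aass in fed BAT of animal 2 (23.2).

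Sds differed from the rest in how far the liver and fat levels stood apart in the 2 feeding states. Fed liver exceeded fed BAT at least 3.96-fold and fed WAT at least 3.94-fold, whereas fasted liver exceeded fasted WAT at least 75.6-fold. Aass was at least 141-fold higher in fasted liver than in fasted BAT, at least 140-fold higher than in fasted WAT, and at least 115-fold higher in fed liver than in fed WAT.

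The other 4 genes passed the filter in all 3 tissues, and their order differed. For Oat the order was liver, WAT, BAT: fasted animals averaged 1839 ± 490 in liver, 525 ± 33.6 in WAT and 361 ± 48.1 in BAT, and fed animals 1597 ± 244, 456 ± 57.9 and 190 ± 19.3 (SD, n = 4). BAT lay below WAT by limma in both states, by -0.55 ± 0.16 in fasted animals (adjusted p = 0.00653) and by -1.25 ± 0.16 in fed animals (adjusted p = 7.08e-07). Aadat had the same order with a wider gap between the fats, of -3.24 ± 0.17 in fasted animals (adjusted p = 3.68e-13) and -2.43 ± 0.17 in fed animals (adjusted p = 6e-11), BAT minus WAT. Its signal in fasted BAT was under the filter line on 3 of 4 arrays, so the size of the fasted gap is uncertain. For Prodh the order was liver, BAT, WAT, with BAT above WAT by 2.04 ± 0.19 in fasted animals (adjusted p = 9.63e-09) and by 1.38 ± 0.19 in fed animals (adjusted p = 3.54e-06). Gls2 had the same order as Prodh with a small gap between the fats, of 0.50 ± 0.15 in fasted animals (adjusted p = 0.00736) and 0.57 ± 0.15 in fed animals (adjusted p = 0.00291). Liver exceeded the next tissue 3.4-fold for Oat in fasted and 3.48-fold in fed animals, 11.1-fold and 9.46-fold for Aadat, 3.59-fold and 5.45-fold for Prodh, and 29.3-fold and 28.6-fold for Gls2. Scan days are numbered within each tissue, and no day held arrays of more than 1 tissue. Tissue and scan day therefore cannot be told apart in these levels. With scan day as a random block, the median level difference over the members was 6.71 for fasted liver minus fasted BAT. It was 5.67 for fed liver minus fed BAT. These are the same values as without the block. That was fixed by the design, since each liver and BAT day held 2 fasted and 2 fed arrays. The block cannot separate day from tissue, since no day was shared between tissues.

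Beyond the 9 enzymes, lists of further genes of the same pathways were examined. Of 55 such genes in 8 lists, 47 had a probe set of their own and 45 were tested in liver: 9 rose, 10 fell and 26 were not called, where 9.41% of all genes tested rose and 8.6% fell. Their median change was -0.08. In the serine, glycine and threonine list, 2 of 8 tested genes rose and 3 fell. Those that fell were Gldc and Gcsh, which are parts of the glycine cleavage system, and Shmt2. Gldc, the glycine decarboxylase of that system, had 120, 94.8, 78.8 and 78.4 in fasted livers, against 343, 306, 519 and 322 in fed livers. Gldc fell by 1.97 ± 0.20 (limma, adjusted p = 6.23e-05), so that fasted values were under the lowest fed value in every animal. Shmt2, the mitochondrial serine hydroxymethyltransferase that interconverts serine and glycine, had 900, 887, 696 and 770 in fasted livers and 1825, 1443, 1955 and 1767 in fed livers, and fell by 1.10 ± 0.13 (adjusted p = 0.000195). Gcsh, the carrier protein of the cleavage system, fell by 0.35 ± 0.10 (adjusted p = 0.027), a call lost in 8 of 21 alternative fits. Gcat, an enzyme of threonine breakdown, rose by 0.50 ± 0.14 (adjusted p = 0.0298), a call lost in 9 of 21. Sds, at 4.26 and counted among the 9 members rather than in this list, thus moved the opposite way to Gldc.

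The lists of the pathways of Tat and Tdo2 held falls and no rises in liver. In the tyrosine and phenylalanine list 2 of 5 tested genes fell: Hgd, the homogentisate dioxygenase, by 0.84 ± 0.20 (limma, adjusted p = 0.0147), and Qdpr, which regenerates the cofactor of phenylalanine hydroxylation, by 0.62 ± 0.13 (adjusted p = 0.00835). Hgd had 962, 636, 1022 and 1147 in fasted livers and 1164, 1809, 1876 and 1893 in fed livers, where fasted animal 10 and fed animal 1 nearly met. In the tryptophan and kynurenine list 2 of 8 fell: Haao by 0.48 ± 0.13 (adjusted p = 0.0223) and Qprt by 0.60 ± 0.16 (adjusted p = 0.0255), which act in turn on the way to NAD; each of these calls was lost in 6 of 21 alternative fits. The medians of these lists were -0.08 and -0.33, against 0.03 for all genes. In the histidine list Ftcd, which ends histidine breakdown by passing a one-carbon group to folate, rose by 0.30 ± 0.08 (adjusted p = 0.0296), but the call was lost in 11 of 21 alternative fits, with an adjusted p of up to 0.574. Hal fell, and Uroc1, the urocanate hydratase between them, was at 0.03 ± 0.11.

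In the methionine and cysteine list 3 of 10 tested genes rose and 2 fell in liver. Mat1a, which makes S-adenosylmethionine, rose by 0.50 ± 0.09 (limma, adjusted p = 0.00344), Ahcy, which splits S-adenosylhomocysteine, by 0.47 ± 0.10 (adjusted p = 0.0102), and Cdo1, the cysteine dioxygenase, by 0.53 ± 0.13 (adjusted p = 0.0136). Mpst, a sulfurtransferase of cysteine breakdown, fell by 1.01 ± 0.20 (adjusted p = 0.00515). Its signals were 843, 809, 580 and 534 in fasted livers and 1855, 1080, 1469 and 1183 in fed livers, with no overlap. In the lysine list Gcdh, the glutaryl-CoA dehydrogenase, rose by 0.38 ± 0.09 (adjusted p = 0.0172), 1 of 3 tested. In the proline, ornithine and glutamine list, the neighbours of Prodh, Oat and Gls2, none of 5 was called in liver by limma, and 2 had an unadjusted p under 0.05: Glul at 0.38 ± 0.13 (adjusted p = 0.063) and Aldh4a1 at -0.41 ± 0.16 (adjusted p = 0.105).

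**Figure D3:**
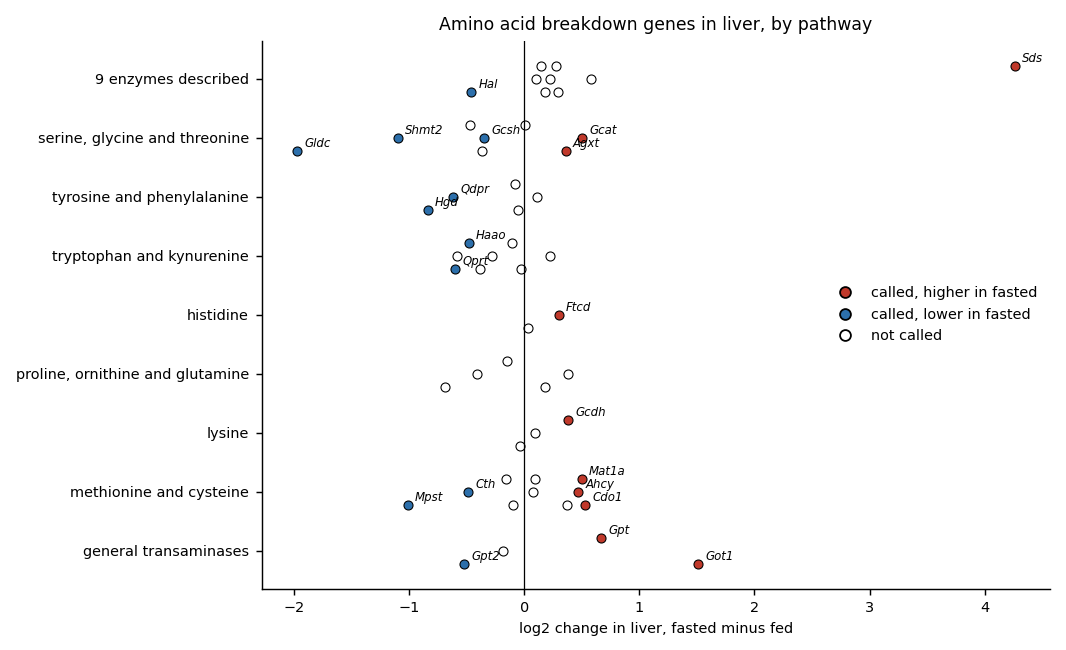
Log2 change in liver, fasted minus fed, of the 9 enzymes and of the other tested genes of their pathways, 1 row for each list; red points were called higher, blue points lower, and open points were not called. Sds at 4.26 and Gldc at -1.97 are the ends of the range.

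In the fats 31 genes of these lists were tested: 6 rose and 4 fell in BAT, and 3 rose and 3 fell in WAT. These 10 and 6 calls are close to the shares over all genes tested, 26.9% in BAT and 18.2% in WAT. In the proline, ornithine and glutamine list, Glul, the glutamine synthetase, rose by 0.45 ± 0.11 in BAT (limma, adjusted p = 0.0131) and by 0.69 ± 0.15 in WAT (adjusted p = 0.0129). Glud1, the glutamate dehydrogenase, rose by 0.51 ± 0.13 in BAT (adjusted p = 0.0141) and by 0.39 ± 0.10 in WAT (adjusted p = 0.0241). Aldh4a1, which acts after Prodh and takes up the product of Oat, fell by 0.94 ± 0.24 in BAT (adjusted p = 0.0166) and by 0.78 ± 0.22 in WAT (adjusted p = 0.0343). The WAT call was lost in 9 of 22 alternative fits for Aldh4a1 and in 7 of 22 for Glud1. With muscle marker level as a covariate, all 3 lost their BAT calls, with an adjusted p of 0.221 for Glul, 0.558 for Glud1 and 0.352 for Aldh4a1.

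The general transaminases, which pass amino groups between many amino acids and glutamate, split by gene and by tissue. In liver Got1, the cytosolic aspartate aminotransferase, had 3236, 2889, 3370 and 1855 in fasted animals and 1044, 826, 1045 and 972 in fed animals, and rose by 1.51 ± 0.18 (limma, adjusted p = 0.000204). Gpt, the cytosolic alanine aminotransferase, had 1562, 1482, 1717 and 1327 in fasted livers and 834, 1202, 842 and 976 in fed livers, and rose by 0.67 ± 0.14 (adjusted p = 0.00673). The mitochondrial alanine enzyme, Gpt2, had 1068, 1113, 1190 and 838 in fasted livers and 1496, 1534, 1505 and 1471 in fed livers, and fell by 0.52 ± 0.12 (adjusted p = 0.0109). No fasted liver overlapped a fed liver in these genes. The liver call was lost in 1 of 21 alternative fits for Gpt and in 3 of 21 for Gpt2. Got2, the mitochondrial aspartate enzyme, was at -0.18 ± 0.08 and was not called (adjusted p = 0.161).

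In both fats the changes of the alanine enzymes had the opposite sign to those in liver, with calls that were less stable in BAT than in WAT. Gpt fell by 0.75 ± 0.15 in WAT (limma, adjusted p = 0.00736) and by 0.44 ± 0.14 in BAT (adjusted p = 0.045), and the call in BAT was lost in 14 of 22 alternative fits. Gpt2 rose by 1.44 ± 0.20 in WAT (adjusted p = 0.00111), where fasted animals had 352, 394, 525 and 321 and fed animals 149, 118, 120 and 195. In WAT the 2 fasted arrays with high muscle markers, animals 8 and 10, had Gpt2 values of 394 and 321, on both sides of the 352 of animal 6. Gpt2 rose by 1.06 ± 0.30 in BAT (adjusted p = 0.0237), where fasted animals had 103, 105, 83.5 and 67.7 and fed animals 35.9, 30.2, 33.1 and 81.5. The fed BAT array at 81.5 was that of animal 5, with high muscle markers, and the change with muscle level as a covariate was 0.05 (adjusted p = 0.964). Over 22 alternative fits, that 1 included, the Gpt2 call in BAT was lost in 7, and in WAT the calls of Gpt and Gpt2 were each lost in 1 of 22. The tissue difference itself was called for Gpt, at 1.10 ± 0.21 for liver minus BAT (adjusted p = 0.00122) and 1.42 ± 0.21 for liver minus WAT (adjusted p = 0.000103). For Gpt2 it was -1.58 ± 0.32 (adjusted p = 0.00229) and -1.97 ± 0.32 (adjusted p = 0.000335). The fits of the tissue difference did not hold muscle marker level, and its part in these values was not tested.

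**Figure D4:**
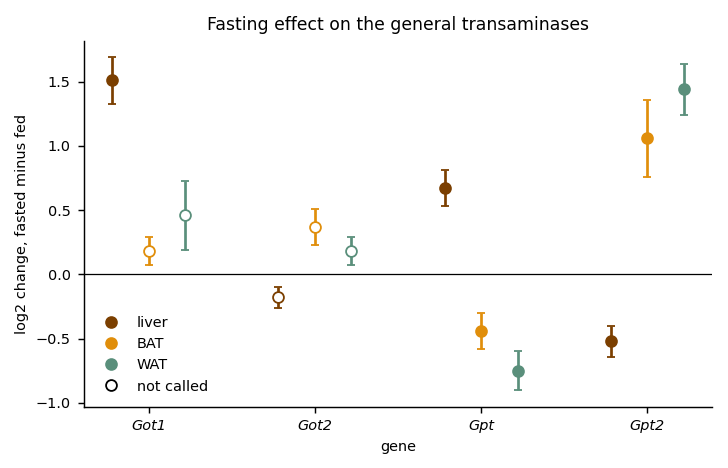
Log2 change, fasted minus fed, with SE, of the 4 general transaminases in liver, BAT and WAT; filled points were called. Gpt is above 0 in liver and below 0 in both fats, and Gpt2 is the reverse.

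Genes that regulate amino acid breakdown or mark zones of the liver lobule were read against the 18% of all genes called in liver. Of 11 regulators tested there, 1 rose: Ppargc1a, a coactivator of fasting metabolism, had a mean signal of 67.2 ± 13.9 in fasted and 23.4 ± 12.2 in fed livers (SD, n = 4) and rose by 1.63 ± 0.41 (limma, adjusted p = 0.0193). Ppara, the receptor of the fatty acid response, was at 1.59 ± 0.51 (adjusted p = 0.0521), Cebpb, a hormone-responsive transcription factor, at 0.54 ± 0.19 (adjusted p = 0.0727) and Gcgr, the glucagon receptor, at -0.40 ± 0.14 (adjusted p = 0.0699). Of 6 periportal genes, Pck1, the cytosolic enzyme of glucose synthesis, rose by 1.53 ± 0.12 (adjusted p = 1.37e-05) and the cadherin gene Cdh1 fell by 1.00 ± 0.15 (adjusted p = 0.000991). None of 6 pericentral genes was called by limma, and 3 had an unadjusted p under 0.05: Glul, Slc1a2, a glutamate transporter, at 1.11 ± 0.39, and Cyp7a1, the rate-limiting enzyme of bile acid synthesis, at -0.80 ± 0.36.

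The genes whose profiles over the 24 arrays were nearest to each member were found by the root mean square difference of centred log2 signals, where 0 means equal profiles. Sds had no close match: its nearest genes were Igfbp1, a secreted binding protein of growth factors, at 1.10 and Cyp17a1, a steroid-forming enzyme, at 1.13. Tat was nearest to Dmgdh at 0.39 and Itih4 at 0.50, and Tdo2 to Uroc1 at 0.46 and Dmgdh at 0.47. Tat and Tdo2 were thus near the same gene, Dmgdh, a mitochondrial enzyme of choline breakdown, and they differed from each other by 0.56. Hal was nearest to Slc22a7 (0.67), Aass to Cyp4f4 (0.64), Aadat to Maob (0.60) and Prodh to Dpyd (0.42). The second nearest were Slc26a1 (0.68), Cyp2c11 (0.67), Mal2 (0.67) and Gstm7 (0.46) in the same order. The closest matches were those of Oat, to Tmem176b at 0.28 and Rnase4 at 0.32, and of Gls2, to C8g at 0.30 and Cdh2 at 0.38. The 24 arrays include all 3 tissues, and how much of each distance lies between tissues was not computed.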

How the data were processed

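The authors deposited 1 linear intensity for each probe set, made with MAS5 per the submitters' processing notes; the MAS5 version, a scaling target and detection calls are not given in the sources used here. The scanner's experiment records were used only for the scan day. The 57 control probe sets of 31099 were left out. Of the rest, 20826 carried 1 symbol, 436 several and 9780 none in the annotation used here. The 2% trimmed means of the arrays, 92.81 to 205.2, were brought to 128.4, and log2(signal + 1.9) was taken, the 1.9 being the 10th percentile of all signals; this understates changes of dim genes. Each gene was represented by its probe set of highest mean. Genes above the 40th percentile of mean log2 signal in the tissue were tested with limma 3.58.1 in R 4.3.3 (mean-variance trend, two-sided, Benjamini-Hochberg). Tissue differences and levels came from 1 model of all 24 arrays with 6 group means and genes above the filter in at least 1 tissue. Arrays have no read depth, and their number limits the precision. Across the 14217 named genes, with 1 probe set each, r between replicate arrays was 0.933 to 0.971. The labels number animals within each tissue, and p-values measure the spread between these samples. The fits were tested on simulated data, where many small changes were missed. Far fewer genes were changed there than were called in the data. In liver 67 genes were changed by 0.5, 67 by 1 and 66 by 2, of 10251, where 18% were called in the data. With so few changed genes the Benjamini-Hochberg adjustment is stricter, so the shares given here may be lower than those of the real fits. Changes of 0.5 were called for 19.4% of changed genes in liver and 23.9% in BAT and in WAT. For changes of 1 the shares were 68.7%, 74.6% and 59.7%. In the difference of the fasting effect, a change of 0.5 was called for 0% (liver minus BAT) and 1.5% (liver minus WAT). A gene not called may still have changed by such an amount, but these shares do not give how often that was so in the data. The members, lists and alternatives were chosen with earlier results of these data known. Named were all members, up to 4 genes of each list in order of their p in liver, and the 2 nearest profiles of each member; muscle and macrophage markers are named besides, and so is the behaviour in fat of listed genes. Listed genes without a probe set of their own were not analysed here. The alternatives were quantile normalization, median centring, pseudocounts of 1 and 16, no filter or the 60th percentile, the mean of a gene's probe sets or each on its own, no trend, all 24 arrays, scan day as a block or each day alone, animal number as a block, and each array left out; muscle marker level as a covariate and dim signals set to the filter line were added later.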

Additional observations from a re-analysis of the deposited data

Results flagged for a closer look

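In 3 of 54 groups of 4 signals 1 value lay far from the others; chance gives about 1 in 20. Tdo2 was at 29.71 in fasted WAT of animal 10, against 7.78 to 8.76 on the other 3 arrays. That array also had the highest summed hepatocyte markers of the fasted WAT arrays, at 3560, and a muscle marker level of 12.03, and their part was not tested. Hal was at 778.4 in fasted liver of animal 8, against 1044 to 1079 on the other fasted livers, and at 1284 in fed liver of animal 1, against 1366 to 1384 on the other fed livers. Both lie on the side of lower signal, and neither ended the gap between the groups.

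The fasting effect differed between liver and BAT, by limma's interaction test, for Sds (3.40), Aadat (1.04), Oat (-0.74), Got1 (1.33), Gpt (1.10), Got2 (-0.55) and Gpt2 (-1.58). It differed between liver and WAT for Sds (4.82), Got1 (1.06), Gpt (1.42) and Gpt2 (-1.97). The values of Sds rest on fat signals under the filter line on 7 of 8 BAT and all 8 WAT arrays and are no measured sizes; with those signals set to the line they were 4.22 and 4.26. The adjusted p was 0.00423 for Got1 and 0.0208 for Got2 between liver and BAT, and 0.0271 for Got1 between liver and WAT. The Got2 call was lost in 5 of 22 alternative fits and the Got1 call between liver and WAT in 6 of 22. None of these fits held muscle marker level as a covariate, so its part in the differences between liver and fat was not tested. Within BAT, the change of Gpt2 with that covariate was 0.05.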

How the results depend on the processing

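Under 21 alternatives the change of Sds in liver ran from 3.89 to 4.51 with an adjusted p of at most 0.000305, and no called value of a member changed sign. The number of members called in liver, 2 as reported, was 1 with no mean-variance trend, on the second scan day alone or with all 24 arrays in 1 model. It was 4 on the first scan day alone and 5 with scan day as a block, and leaving out 1 array gave 1 to 4. Over all genes, the 1847 calls as reported became 1547, 976, 2110, 1529 and 2928 in the same order, and 1406 to 1645 leaving out 1 array. In BAT the number of members called, 3 as reported, was 1 on the first scan day alone and 0 with muscle marker level as a covariate (added after seeing the data). Leaving out 1 array gave 1 to 3 there (1 without fed animal 1 or fasted animal 9). Between BAT and WAT the number was 0 to 1 when each animal was left out. The cause of these shifts was not tested. The median level difference over members, fed liver minus fed BAT, was 6 under median centring and 5.16 with a pseudocount of 16; fed liver minus fed WAT was 5.78 and 4.98; with a pseudocount of 16, fasted liver minus fasted BAT was 5.77 and fasted liver minus fasted WAT 5.6; fed BAT minus fed WAT was 0.6 without animal 2, where leaving out each animal gave 0.21 to 0.6. A larger pseudocount shrinks differences of dim genes by its construction. Genes called in liver, 1847, were 2928 with the scan day block and 976 on the second day; in BAT, 2782, they were 343 with the muscle covariate and 1203 on the first day; in WAT, 1867, they were 1143 with the covariate, 961 and 262 on the 2 days and 1173 without fed animal 5. Between liver and BAT, 1178 genes became 2074 with the scan day block and 736 without animal 2; between liver and WAT, 851 became 1325 with the block; between BAT and WAT, 158 became 335 with the block, 276 with signals under the filter line set to the line (added after seeing the data), 238 with a pseudocount of 16 and 72 to 101 without animal 2, 4, 6 or 8. Setting dim signals to the line removes their spread by construction, and Hal was then also called between liver and BAT (-0.50). With the animal number as a replicate block the members called were the same: Sds, Aadat and Oat between liver and BAT, Sds between liver and WAT, none between BAT and WAT. Fasted and fed animals share no number, so no such block exists within a tissue. Same-numbered arrays of different tissues correlated by 0.015 to 0.215 over 9168 genes, 13 of 24 pairs over 0.1. Their median was 0.106, against -0.038 for differently numbered arrays of the same feeding state. The signals were first centred on their group means, so higher values for equal numbers push the others down, and the -0.038 is no separate reference. In 21 of 24 comparisons of 1 array with the 4 arrays of another tissue in its feeding state, the highest correlation was with its own number. Arrays with equal numbers also had the same scan day number in each tissue, except animal 9 in WAT, and the part of that was not tested. The match of numbers is a hint from the data that equal numbers mark the same rat. The labels do not say so, and the main fits treated the 24 arrays as independent. Of 2015 values of 40 other named genes, 1840 kept their side of the threshold, 133 lost and 42 gained a call, and none reversed.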
